A study of Mus musculus with 24 samples.

Results

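Fibroblasts and other stromal cells build the extracellular matrix, the network of collagens, glycoproteins and proteoglycans that holds a tissue together. Of 40 genes for these proteins and for the enzymes, receptors and contractile proteins of the cells that make them, 38 were measured among 18193 genes on arrays of mouse bone marrow-derived macrophages. The genes were chosen as a module because their values varied between cultures that had received no IL-4, and all 85 probe sets with a member as their only gene symbol were used. Fbn1, a microfibril protein, had no such probe set in the table used here, and the probe sets for Loxl2, a collagen cross-linking enzyme, also carried another symbol.

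Collagen chains are made in the endoplasmic reticulum, where the chaperone encoded by Serpinh1 binds them, and are assembled into fibres and cross-linked outside the cell by lysyl oxidases. Small proteoglycans such as decorin and biglycan coat the fibres, and matricellular proteins such as SPARC and the CCN factors signal from the matrix to the cells around it. Marrow contains stromal cells of this kind beside the blood-forming cells from which macrophages are grown, and activated fibroblasts carry smooth muscle actin and other contractile proteins.

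Cultures came from 3 wild-type (WT) C57Bl/6 mice, numbered 1 to 3, and 3 mice lacking STAT6 (KO), numbered 4 to 6. The paper names the strain beside the WT mice only. STAT6 is a transcription factor that acts downstream of IL-4, beside a pathway through IRS-2. Femoral marrow was grown for 10 days in M-CSF, the macrophage growth factor, at 20 ng/ml. Each number opens 4 sample titles and was taken here as 1 mouse, which the titles themselves do not state. The 4 cultures were vehicle (DMSO and ethanol), 1 µM rosiglitazone (RSG, an agonist of the nuclear receptor PPARγ), IL-4 at 20 ng/ml with vehicle, or IL-4 with RSG. This makes 24 arrays in 8 groups of 3. KO mice lack STAT6 in every cell, so a gene can differ through any cell type in the culture, and no sorting step is described. The design asks how IL-4 and STAT6 alter the response to RSG.

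Values were ratios that the authors scaled to each probe set's median over the arrays. They are given here on a log2 scale and, for a gene, as the median of its probe sets. A value of 0 is the median of most probe sets, 75 of the 85 for members. Some genes lay below it, such as Tnc, with a median of -1.39 without IL-4 and -1.95 with it. No absolute level is known, so levels of different genes were not compared. Stat6 lay between 0.77 and 1.12 on WT arrays and between -2.01 and -1.60 on KO arrays. Of 15 listed macrophage markers 14 were measured, and their mean lay between -0.91 and 0.22 over the 24 arrays. The number of arrays limits the precision.

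The arrays without IL-4 were those on which the genes were chosen. Their values are therefore a description, with no test. The mean over the 38 genes was 0.81, 2.03 and -0.18 in the WT vehicle cultures of mice 1, 2 and 3, against -0.62, -0.10 and -0.49 in the same mice with RSG. In KO cultures the direction was the opposite: the mean was -0.61, -0.50 and -0.12 with vehicle in mice 4, 5 and 6, and 0.66, 1.02 and 3.61 with RSG. All 3 KO cultures with RSG were above all 3 with vehicle, whereas in WT the vehicle culture of mouse 3 was below the RSG culture of mouse 2. The group mean was 0.88 ± 1.11 (SD, n = 3) for WT vehicle, -0.40 ± 0.27 for WT RSG, -0.41 ± 0.26 for KO vehicle and 1.76 ± 1.61 for KO RSG. With IL-4 no culture exceeded 0.04, and the group means lay between -0.52 and -0.22. In RNA from a whole culture, the number of stromal cells, the RNA per stromal cell and RNA from other cells cannot be told apart.

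**Figure D1:**
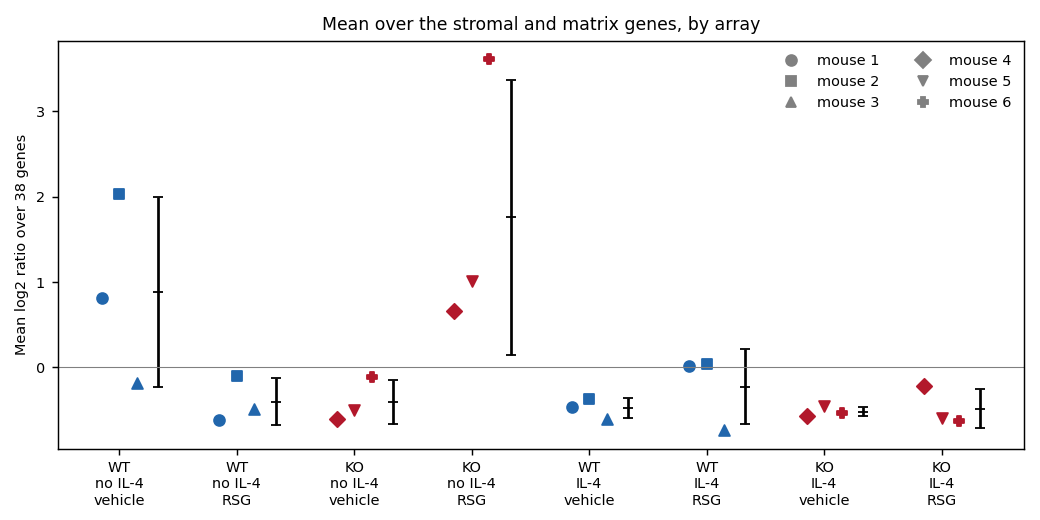
Mean log2 ratio over the 38 stromal and matrix genes (vertical axis) on each array, by group; blue, WT; red, KO; symbols, mouse; black bars, group mean ± SD of 3 arrays. The KO RSG culture of mouse 6 without IL-4 stands at 3.61 and the WT vehicle culture of mouse 2 at 2.03, while all cultures with IL-4 lie between -0.73 and 0.04.

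The mean over members was highest on 2 arrays, the KO culture of mouse 6 with RSG and the WT vehicle culture of mouse 2. The median range of a member over the 12 arrays without IL-4 was 5.32, and 3.52 without these 2. Without them the mean of the other WT vehicle cultures was 0.31 (n = 2) and that of the other KO RSG cultures 0.84 (n = 2). The values of single members on each array, the counts within mice and the counts at the 2 arrays themselves are given with them. On the former, 34 of 38 genes had a value of at least 1 and 21 a value of at least 3. On the latter these counts were 24 and 11. Of the 38 genes, 28 had their highest value of all 24 arrays in the RSG culture of mouse 6, as had 59 of the 85 probe sets. For 22 genes the 2 highest values among the 12 arrays without IL-4 were those of these 2 cultures, against 2.32% of all genes. Over all genes, 6.12% had a value of at least 1 in the RSG culture of mouse 6, against 2.73% to 3.94% in the other cultures without IL-4.

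Promoter letters are shown for the 5 genes whose values followed the mean of the other members most closely on the 12 arrays without IL-4, namely Sparc (Pearson correlation 0.986), Col1a2 (0.976), Fstl1 (0.973), Col3a1 (0.969) and Bgn (0.965). Each line gives the 250 bases before the RefSeq gene start on the gene's own strand (assembly GRCm38.p6), with matches to the motifs below in capitals on either strand. The window of Sparc, a collagen-binding matricellular protein, is chr11:55420081-55420330 on the minus strand. The others lie on the plus strand: that of Col1a2, a chain of type I collagen, is chr6:4505368-4505617, that of Fstl1, a secreted follistatin-like glycoprotein, chr16:37776805-37777054, that of Col3a1, the chain of type III collagen, chr1:45311288-45311537, and that of the proteoglycan gene Bgn chrX:73483351-73483600.
Sparc: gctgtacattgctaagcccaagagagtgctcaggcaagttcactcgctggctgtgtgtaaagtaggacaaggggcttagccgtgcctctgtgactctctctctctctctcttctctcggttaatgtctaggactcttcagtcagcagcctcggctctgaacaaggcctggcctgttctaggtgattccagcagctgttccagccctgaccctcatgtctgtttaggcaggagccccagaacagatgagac
Col1a2: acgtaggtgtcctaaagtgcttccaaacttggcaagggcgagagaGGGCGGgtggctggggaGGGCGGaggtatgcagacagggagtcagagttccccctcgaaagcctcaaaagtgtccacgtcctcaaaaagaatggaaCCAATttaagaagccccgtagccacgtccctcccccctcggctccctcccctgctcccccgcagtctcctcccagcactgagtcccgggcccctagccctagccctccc
Fstl1: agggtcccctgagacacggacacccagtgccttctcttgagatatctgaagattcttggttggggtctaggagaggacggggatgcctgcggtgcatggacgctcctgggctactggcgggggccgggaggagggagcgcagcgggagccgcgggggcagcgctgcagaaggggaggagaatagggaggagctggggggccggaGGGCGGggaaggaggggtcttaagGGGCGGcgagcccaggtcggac
Col3a1: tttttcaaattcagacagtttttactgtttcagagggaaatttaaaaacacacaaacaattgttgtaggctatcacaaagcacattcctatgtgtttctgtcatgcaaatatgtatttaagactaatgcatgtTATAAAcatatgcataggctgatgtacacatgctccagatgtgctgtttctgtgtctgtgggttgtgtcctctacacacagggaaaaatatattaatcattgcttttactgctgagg
Bgn: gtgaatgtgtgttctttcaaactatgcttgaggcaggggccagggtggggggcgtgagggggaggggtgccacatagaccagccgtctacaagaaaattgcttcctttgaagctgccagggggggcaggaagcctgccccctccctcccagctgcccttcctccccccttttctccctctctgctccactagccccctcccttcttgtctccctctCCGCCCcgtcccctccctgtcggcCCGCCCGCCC

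No motif was shared by these 5 windows. CArG boxes, the sites of serum response factor, were in 0 of the 27 members with a RefSeq window, against 1.62% of 27025 genes. GGGCGG, the core of an Sp1 site, was in 14 members (51.9%), among them Col1a2, Fstl1 and Bgn, against 35.4% of all genes. TATAAA was in 7 (25.9% against 14.3%), Col3a1 among them, CCAAT in 6 (22.2% against 37.5%), Col1a2 among them, and TGANTCA, an AP-1 site, in 2 (7.41% against 7.82%). Both strands were searched, and Sparc held none of these letters in its window. A match is a description of the sequence, and no factor was measured.

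Fibrillar collagens form the tensile fibres of connective tissue, and all 5 were highest in the RSG culture of mouse 6. Col1a2 was at 2.79, 6.10 and 0.31 in the WT vehicle cultures, -0.10, 0.45 and -0.78 in WT with RSG, -0.16, -0.48 and 1.31 in KO with vehicle and 2.82, 2.88 and 7.54 in KO with RSG. It ran from -1.71 to 1.54 with IL-4. The values for Col1a1, the other chain of type I collagen, were 1.19, 3.82 and -0.88 (WT vehicle), -2.19, -1.19 and 0.36 (WT RSG), -0.30, 0.38 and 1.32 (KO vehicle) and 0.93, 1.13 and 5.60 (KO RSG), and with IL-4 it ran from -1.64 to 0.76. Both chains were thus raised in mice 1 and 2 but not mouse 3 among WT vehicle cultures, and Col1a2 was higher in all 3 KO cultures with RSG than in any with vehicle. Col5a2, a chain of type V collagen, which regulates fibre diameter, was at 2.35, 3.52 and -1.06, -0.92, 0.37 and -1.91, -0.67, -0.13 and 0.58 and -0.47, 1.70 and 5.68 in the same order, and its KO groups overlapped, since mouse 4 with RSG lay at -0.47. Col3a1 and Col5a1 ranged over 5.85 and 2.84 without IL-4, against 2.42 and 1.56 with it.

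Network and beaded-filament collagens form basement membranes and fine filaments. Over the 12 arrays without IL-4, the correlation with the mean of the other members was 0.68 for Col4a1, 0.43 for Col4a2 and 0.77 for Col8a1. It was 0.89, 0.88 and 0.92 for Col6a1, Col6a2 and Col6a3, against 0.85 to 0.98 for the fibrillar chains. Col6a1, a chain of type VI collagen, stood at -0.73, 1.21 and 5.49 in KO with RSG and at 0.67, 2.87 and -0.06 in WT with vehicle. Its other no-IL-4 values were -0.49, 0.22 and 1.18 in WT with RSG and -0.28, -0.93 and 0.14 in KO with vehicle, so that only the 2 cultures named above reached 2. The values for Col8a1, a short-chain collagen of vessel walls, were 0.38, 1.90 and 0.78, -2.04, 1.54 and -1.25, -1.84, 1.41 and 0.45 and 1.49, 0.73 and 3.96 for WT vehicle, WT RSG, KO vehicle and KO RSG. Col4a1 and Col4a2, the paired chains of basement membrane collagen, parted from the fibrillar chains in WT. Col4a2 was at 0.22, 0.97 and -0.77 with vehicle and 0.94, 1.30 and 1.25 with RSG in WT, and at -1.25, -0.31 and -3.55 and 1.87, 1.34 and 2.03 in KO. For Col4a1 the WT values were -0.23, 1.30 and -1.81 with vehicle and 0.83, 1.04 and 0.63 with RSG, and the KO values -1.92, -0.51 and -0.44 and 1.58, 1.79 and 2.89. In KO the RSG cultures lay above all vehicle cultures for both chains, as for the fibrillar chain Col1a2. Col6a2 and Col6a3 ranged over 5.49 and 5.02 without IL-4 and over 1.18 and 1.47 with it.

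**Figure D2:**
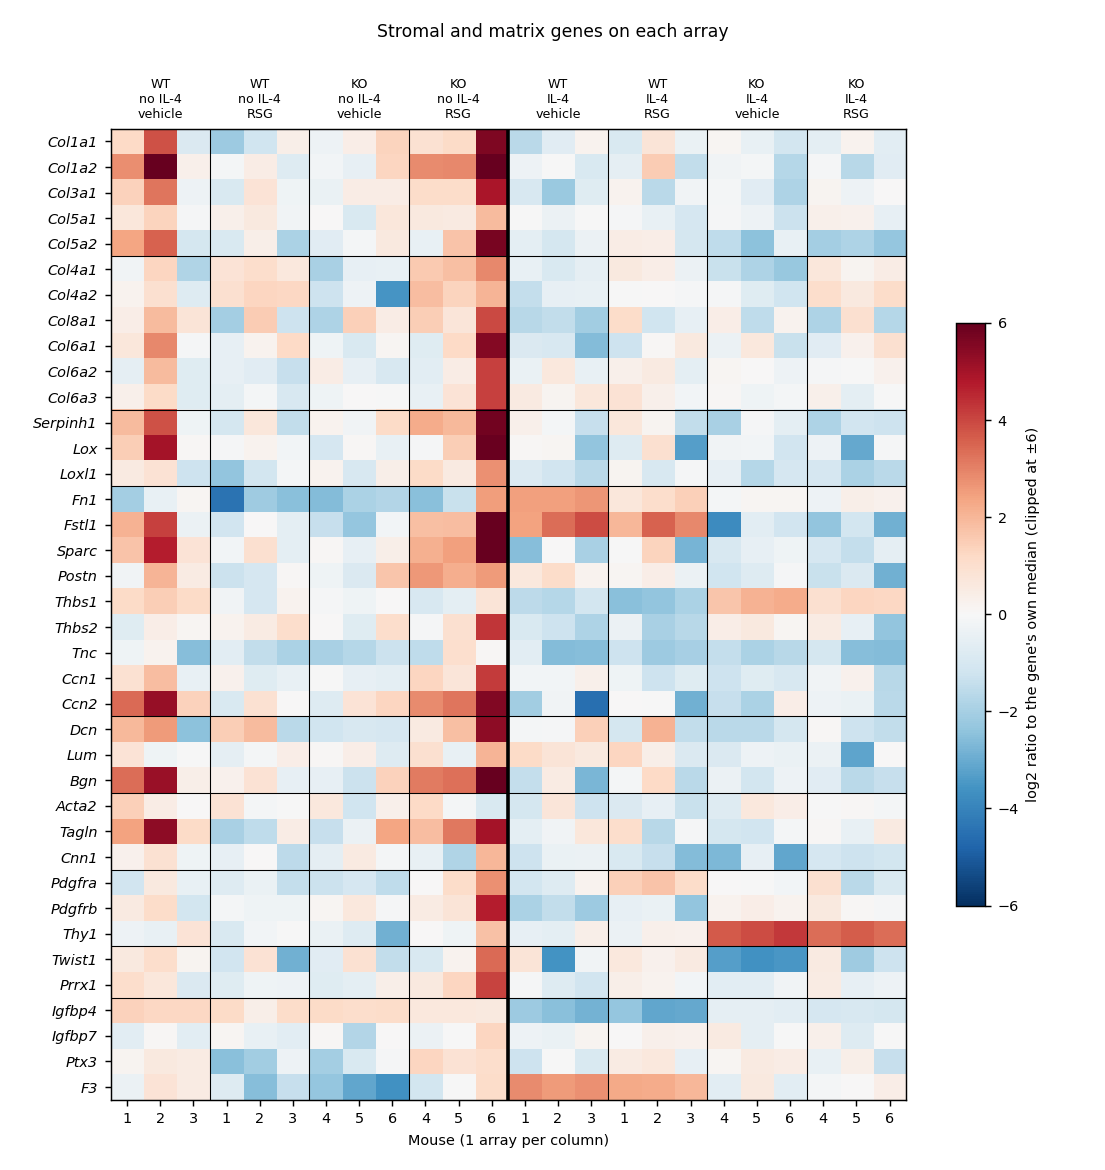
Log2 ratio of each of the 38 genes (rows, grouped by role) on each of the 24 arrays (columns, by group and mouse), red above and blue below the gene's own median, clipped at ±6. The thick line parts arrays without IL-4 (left) from those with it; KO mouse 6 with RSG is red over most rows, while Thy1 and Thbs1 are high in KO and Fstl1, Fn1 and F3 in WT with IL-4.

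Among genes that fold and cross-link collagen, Serpinh1 was at 1.89, 3.82 and -0.24 in WT with vehicle, -1.06, 0.67 and -1.49 in WT with RSG, 0.23, -0.23 and 1.13 in KO with vehicle and 2.25, 1.93 and 5.79 in KO with RSG. Lox, a lysyl oxidase, was at 1.48, 4.98 and 0.09, -0.09, 0.22 and -0.16, -0.99, 0.06 and -0.42 and -0.07, 1.46 and 5.95 in that order. The related enzyme gene Loxl1 was at 0.53, 0.86 and -1.22, -2.38, -1.09 and -0.12, 0.20, -0.98 and 0.33 and 1.16, 0.52 and 2.76. Serpinh1 and Loxl1 showed no overlap between KO cultures with RSG and with vehicle, while for Lox mouse 4 with RSG, at -0.07, lay below mouse 5 with vehicle.

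Matrix glycoproteins and matricellular proteins held Sparc, the closest follower of the module, beside Thbs1, which followed it at a correlation of 0.40. Fstl1 was at 2.09, 4.08 and -0.37 in WT with vehicle, -1.14, 0.01 and -0.60 in WT with RSG, -1.37, -2.32 and -0.17 in KO with vehicle and 1.79, 1.87 and 6.15 in KO with RSG. Sparc was at 1.71, 4.69 and 0.83, -0.18, 0.97 and -0.57, 0.09, -0.47 and 0.36 and 2.16, 2.44 and 6.74 in the same groups, again with all KO RSG cultures above the KO vehicle cultures. The fibronectin gene Fn1, which encodes an adhesive protein that macrophages also make, stood above 0.11 in mouse 6 with RSG alone among cultures without IL-4. Its values were -2.02, -0.43 and 0.11, -4.44, -2.13 and -2.52, -2.59, -1.89 and -1.76 and -2.52, -1.34 and 2.49. The growth factor-binding Ccn2, known as connective tissue growth factor, reached 5.54 in mouse 6 with RSG and 5.21 in mouse 2 with vehicle, where Ccn1 reached 4.21 and 1.85. Postn, which encodes periostin, was high in all 3 KO RSG cultures (2.61, 2.17 and 2.56) and in mouse 2 with vehicle (2.03). Thbs2, an anti-angiogenic thrombospondin, reached 4.29 and Tnc, the matrix glycoprotein tenascin-C, 0.06 in mouse 6 with RSG. Thbs1, a relative of Thbs2 and an activator of TGF-beta, ranged over no more than 2.49 without IL-4.

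Small leucine-rich proteoglycans bind collagen fibres and growth factors. Bgn, the widest-ranging member of all, was at 3.34, 5.17 and 0.36 in WT with vehicle, 0.27, 0.85 and -0.49 in WT with RSG, -0.49, -1.31 and 1.38 in KO with vehicle and 3.13, 3.29 and 7.46 in KO with RSG. Dcn, which encodes decorin, was at 1.96, 2.56 and -2.45, 1.46, 1.89 and -1.60, -1.21, -0.95 and -1.01 and 0.55, 1.80 and 5.34. In WT, decorin was above 0 in mice 1 and 2 and below 0 in mouse 3 under both treatments. Lum, which encodes lumican, was at 0.84, -0.26 and -0.01, -0.56, -0.12 and 0.41, 0.05, 0.38 and -0.75 and 0.95, -0.46 and 2.03, and its KO groups overlapped.

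By gene value, the contractile genes did not act as a unit. Tagln, the smooth muscle protein transgelin, was at 2.39, 5.38 and 1.13 in WT with vehicle, -1.95, -1.51 and 0.45 in WT with RSG, -1.37, -0.33 and 2.37 in KO with vehicle and 1.86, 3.16 and 4.99 in KO with RSG, and was the only member with its highest value of 24 arrays in the WT vehicle culture of mouse 2. Cnn1, an actin-binding calponin, was at 0.27, 0.93 and -0.26, -0.50, 0.04 and -1.56, -0.54, 0.53 and -0.10 and -0.44, -1.78 and 2.01. Acta2, smooth muscle actin, was at 1.43, 0.45 and 0.02, 0.88, -0.13 and -0.02, 0.63, -1.18 and 0.29 and 1.20, -0.12 and -0.93 as the median of 3 probe sets, with its lowest KO RSG value in mouse 6. Its probe sets disagreed: 1416454_s_at read 2.98 in mouse 6 with RSG and 3.01 in mouse 2 with vehicle, 1444105_at -0.93 and 0.45, and 1456658_at -1.08 and -0.94. The correlation of these probe sets with the mean of the other members over the 12 arrays was 0.92, -0.19 and -0.46.

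Such disagreement was not limited to smooth muscle actin. Among the 27 members with more than 1 probe set, every probe set followed the other members at a correlation of at least 0.8 in 5. In 8 members a probe set at 0.8 or more stood beside another under 0.4, namely Acta2, Col5a1, Dcn, Loxl1, Tnc, Pdgfra, Igfbp7 and Ptx3. For Pdgfra, the receptor for platelet-derived growth factor on fibroblast precursors, 1421917_at read 7.42 in mouse 6 with RSG and the other probe sets 2.05 and 2.73. For Ptx3, a pattern-recognition protein, 1418666_at read 3.75 there and 1456903_at -1.60, and for Tnc 1416342_at read 3.68 and 1456344_at -3.57. The gene values of these members, as medians, therefore understate what 1 of their probe sets measured.

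By gene value, surface receptors and transcription factors of mesenchymal cells stood out mainly in the culture of mouse 6 with RSG. Pdgfrb, the receptor on pericytes and fibroblasts, was at 0.56, 1.08 and -1.08 in WT with vehicle, -0.12, -0.24 and -0.27 in WT with RSG, 0.14, 0.65 and -0.06 in KO with vehicle and 0.51, 0.75 and 4.72 in KO with RSG. Gene values for Pdgfra were -1.13, 0.58 and -0.43, -0.79, -0.38 and -1.42, -1.30, -0.99 and -1.54 and 0.01, 1.11 and 2.73 in the same order. Thy1, a surface antigen of fibroblasts and of T cells, was at -0.33, -0.44 and 0.82, -0.90, -0.16 and -0.01, -0.42, -0.78 and -2.90 and 0.01, -0.28 and 1.75. In the 11 other cultures without IL-4, no gene value of these 3 genes exceeded 1.11, but single probe sets did. In mouse 2 with vehicle, 1421917_at for Pdgfra read 3.205 and its other probe sets 0.0 and 0.58. There 1436970_a_at for Pdgfrb read 2.36 and 1417148_at -0.20. Twist1, which drives mesenchymal programmes, was at 0.60, 1.06 and 0.17, -1.15, 0.86 and -2.89, -0.66, 0.90 and -1.50 and -0.92, 0.23 and 3.40. Prrx1, a factor of limb and marrow mesenchyme measured by 6 probe sets, was at 1.04, 0.66 and -0.87, -0.74, -0.27 and -0.30, -0.72, -0.60 and 0.34 and 0.60, 1.31 and 4.06, with every KO RSG value above the KO vehicle values. In mouse 2 with vehicle its probe sets ran from -2.82 to 2.985.

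The 4 remaining members encode secreted or surface factors. F3, the coagulation initiator tissue factor, was at -0.35, 0.80 and 0.49 in WT with vehicle, -0.77, -2.56 and -1.37 in WT with RSG, -2.32, -3.10 and -3.63 in KO with vehicle and -1.11, -0.0014 and 1.12 in KO with RSG, so RSG cultures were the lower in WT and the higher in KO, without overlap in either. Ptx3 was at 0.15, 0.58 and 0.48, -2.53, -2.08 and -0.32, -2.03, -0.91 and -0.07 and 1.27, 0.86 and 1.07 and showed the same order. Igfbp7, a binding protein for insulin-like growth factors, was at -0.63, 0.07 and -0.63, 0.14, -0.44 and -0.61, 0.05, -1.76 and 0.03 and -0.34, -0.0011 and 1.29, with overlap in both genotypes. Igfbp4, of the same protein family, ranged over 1.00 in all cultures without IL-4 and was lower in all 3 KO RSG cultures (0.64, 0.64 and 0.61) than in KO with vehicle (1.14, 1.06 and 1.09).

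Within mice, RSG went with higher values in KO and lower values in WT for most members. The median difference of RSG from vehicle was 1.09, 1.66 and 4.27 in mice 4, 5 and 6, and 26 of 38 members were higher with RSG in all 3, against 9.69% of all genes. It was -1.26, -1.83 and -0.24 in mice 1, 2 and 3, with 22 members lower in all 3, against 16.8% of all genes. Counted by group, 18 members had all KO RSG values above all KO vehicle values, against a share of 4.47% of all genes. In WT, 7 members had all RSG values below all vehicle values (7.85% of all genes). Between genotypes, 7 members had all WT vehicle values above all KO vehicle values (10.7% of all genes), and 18 had all KO RSG values above all WT RSG values (3.87%). In the opposite direction, 1 member was lower in all KO RSG than in all KO vehicle cultures (10.4% of all genes), 0 were higher with RSG in WT (5.21%), 0 were lower in WT than in KO with vehicle (4.84%) and 0 lower in KO than in WT with RSG (11.6%). Without the 2 high arrays, the KO RSG cultures left were above all KO vehicle cultures for 18 members (8.56% of all genes) and above all WT RSG cultures for 18 (7.06%). RSG cultures were then below the WT vehicle cultures left for 7 members (12.3%) and above them for 4 (8.53%), and those vehicle cultures were above all KO vehicle cultures for 8 (15.5%). These shares use the contrasts on which the members were chosen, and nothing is read from them.

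**Figure D3:**
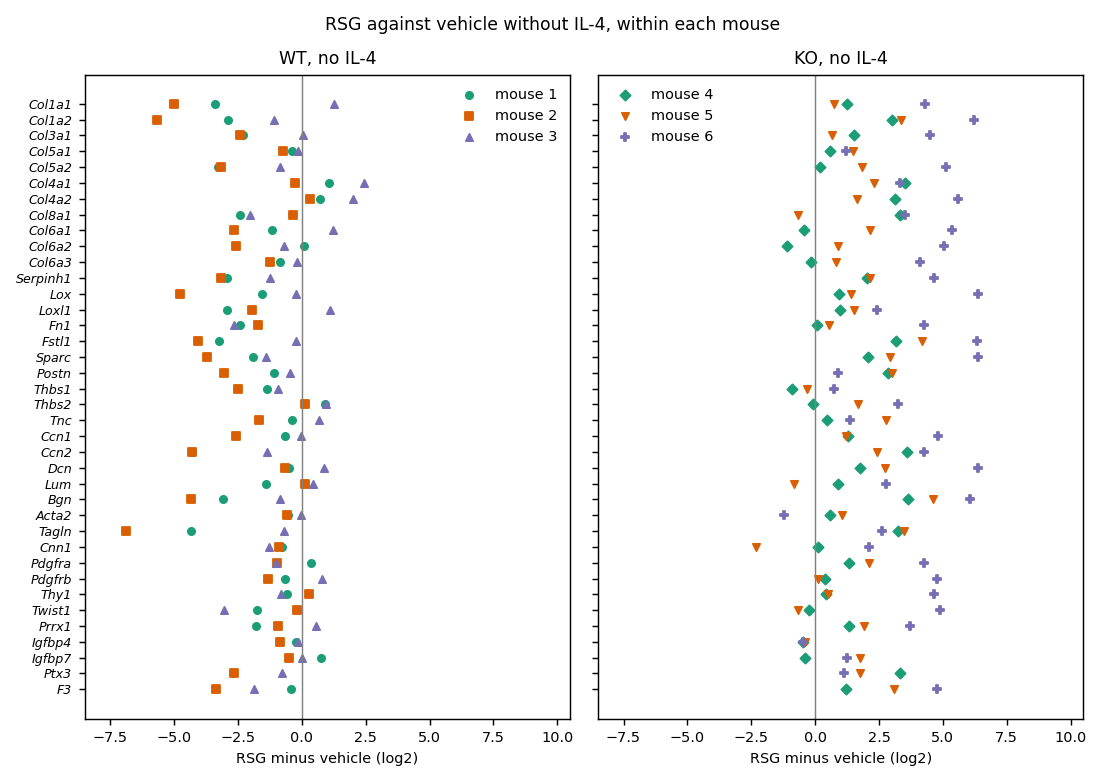
Difference of RSG from vehicle without IL-4 (horizontal axis, log2) for each gene (rows) in each mouse (symbols), WT left and KO right. Most WT points lie left of 0, with medians of -1.26, -1.83 and -0.24, and most KO points right of it, with medians of 1.09, 1.66 and 4.27; mouse 6 lies farthest out.

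How closely the members moved together without IL-4 follows from how they were chosen and is a description. Over the 12 arrays without IL-4, the median correlation of a member with the mean of the others was 0.826, and 21 members reached 0.8. Without the 2 highest cultures it was 0.588 with 8 members at 0.8, and over the 12 arrays with IL-4 it was 0.212 with none. These are descriptions over arrays that share mice. By gene value, the members that parted most from the rest were Igfbp4 (-0.29), Acta2 (-0.21), Thbs1 (0.40), Col4a2 (0.43) and Thy1 (0.50). For Acta2 this is a median over probe sets that disagreed, and 1416454_s_at stood at 0.92. The median range of a member was 5.32 without IL-4, 3.52 there without the 2 highest cultures, and 2.94 with IL-4. Nothing is read from this order, since variation without IL-4 was the reason for choosing the genes.

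Genes outside the module with the most similar pattern over the 24 arrays were Serpinf1 (correlation with the member mean 0.964), which encodes an anti-angiogenic secreted factor, Ltbp2 (0.961), a latent TGF-beta binding protein relative, Timp1 (0.944), an inhibitor of matrix proteases, Fat1 (0.942), a giant cadherin, and Grem1 (0.918), an antagonist of BMPs. They were followed by Aebp1, Fgf7, Ndn, Gja1 and Cdh11, between 0.915 and 0.891. Without the 2 highest cultures these 10 correlations lay between 0.497 and 0.825. Of other matrix assembly genes, 24 of 41 had a value of at least 1 in the RSG culture of mouse 6 and 7 in the vehicle culture of mouse 2. Among them, the procollagen protease enhancer Pcolce stood at 6.01 and 2.12 and Ltbp2 at 5.69 and 3.68. Of the TGF-beta pathway, 4 of 14 reached 1 in each, among them Grem1 at 6.16 and 4.79, Tgfb3 at 4.51 and 2.88 and Tgfb2 at 3.21 and 2.39. Of other contractile genes, 5 and 4 of 12 did, led by the myosin light chain Myl9 at 4.94 and 4.23.

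Markers of other cells were set beside the 2 high cultures. None of 14 macrophage markers had a value of at least 1 in either, and their mean was -0.16 in the RSG culture of mouse 6 and 0.13 in the vehicle culture of mouse 2. The former was the lowest of the 12 arrays without IL-4, the other 11 lying between -0.06 and 0.22, and its part in the module's values was not tested. None of 8 endothelial, 3 adipocyte, 5 epithelial, 5 megakaryocyte, 9 neutrophil, 7 mast cell, 6 lymphocyte or 3 erythroid markers reached 1 in either. In the RSG culture of mouse 6, 2 of 4 chondrocyte markers did (Sox9 at 3.10 and Comp at 2.31), as did 1 of 5 pericyte markers (Cspg4 at 2.99), 1 of 6 osteoblast and marrow stroma markers (the chemokine gene Cxcl12 at 7.34, and at 2.12 in the vehicle culture of mouse 2) and 1 of 5 skeletal muscle markers. On a ratio scale no marker can be said to be absent, and the part of these cells in the values was not tested.

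**Figure D4:**
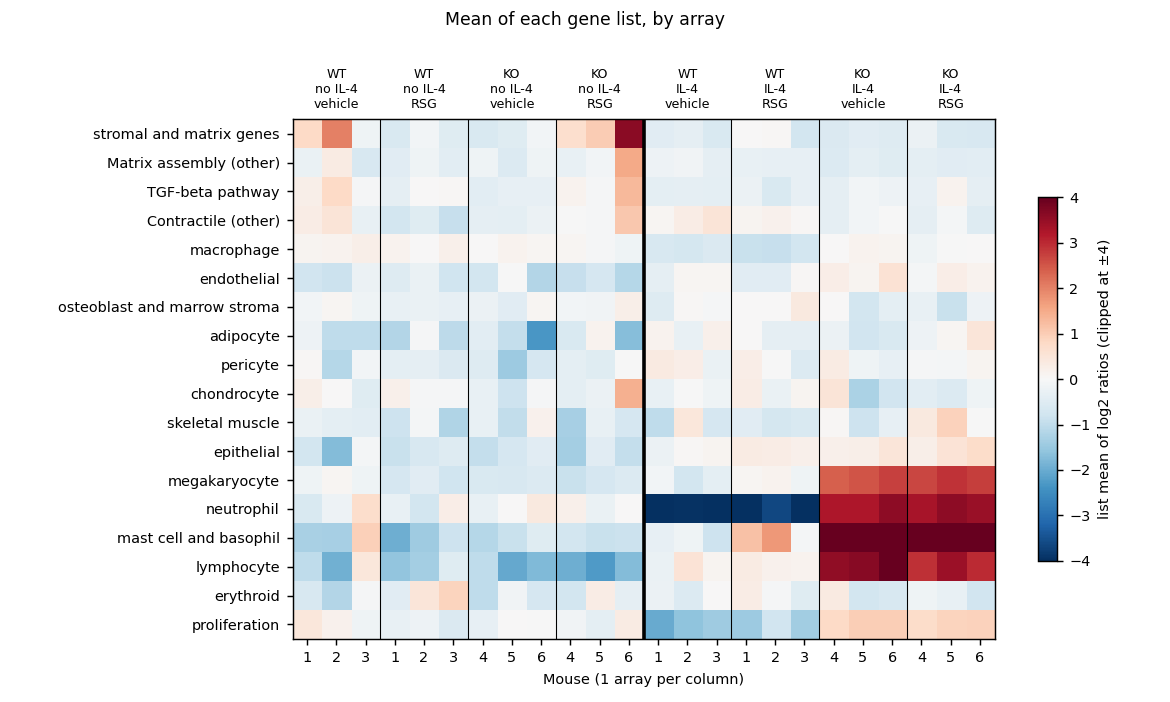
Mean log2 ratio of each gene list (rows) on each of the 24 arrays (columns, by group and mouse), clipped at ±4; the first row is the stromal and matrix genes. The macrophage row stays between -0.91 and 0.22, while the neutrophil, mast cell, lymphocyte and megakaryocyte rows are high on all 6 KO arrays with IL-4.

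The members were chosen for their variation among cultures without IL-4, so here KO and WT were compared by limma on the 12 arrays with IL-4. Earlier results of these data were known at that choice, so its independence from the arrays with IL-4 is not shown. Calls needed an adjusted p under 0.05, over all genes, and a change of at least 1.5-fold. With vehicle, 8 of 38 members were called between KO and WT (21.1%), against a background of 25.8% of all genes, which is near the share for genes in general. Of these, 4 were higher in KO (7.43% of all genes were) and 4 lower (18.4%). The median difference was 0.15 for the members and -0.27 for all genes, a shift of the whole array toward lower values in KO. With RSG the calls were 9 (23.7%, background 21.7%), 3 higher (background 6.71%) and 6 lower (background 15%), with medians of -0.24 and -0.21. With each array centred on its median, 7 members were called with vehicle, 4 higher and 3 lower (9.33% and 10.9% of all genes), and 8 with RSG, 4 higher and 4 lower (8.34% and 9.23%). Both comparisons use separate cultures of the same mice.

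Fstl1, the glycoprotein with the largest difference among those lower in KO, was at 2.39, 3.36 and 3.92 in WT and -3.79, -0.65 and -1.14 in KO with IL-4 and vehicle. With IL-4 and RSG it was at 1.98, 3.53 and 2.89 in WT and -2.35, -1.12 and -2.89 in KO. WT and KO values did not overlap, and the difference was -5.09 ± 0.84 (SE; adjusted p = 0.0013, limma) with vehicle and -4.92 ± 0.84 (adjusted p = 0.0020) with RSG. Both of its probe sets were called in both comparisons.

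Tissue factor and fibronectin, which macrophages can make themselves, followed the same order. F3 was at 2.81, 2.57 and 2.74 in WT and -0.62, 0.58 and -0.63 in KO with vehicle, a difference of -2.93 ± 0.30 (limma, adjusted p = 8.3e-05). With RSG it was at 2.28, 2.21 and 1.97 and -0.14, 0.0014 and 0.38, a difference of -2.07 ± 0.30 (adjusted p = 0.00085). Fn1 was at 2.48, 2.46 and 2.67 in WT and -0.13, 0.10 and 0.14 in KO with vehicle, or -2.50 ± 0.22 (adjusted p = 3.3e-05). With RSG it was at 0.70, 1.04 and 1.44 in WT and -0.30, 0.37 and 0.24 in KO, or -0.96 ± 0.22 (adjusted p = 0.010). That last call rested on probe set 1426642_at (-1.64), since 1437218_at gave -0.28 and was not called, and it was lost without mouse 3 (adjusted p 0.052).

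Thbs1, Thy1 and Igfbp4 were higher in KO with IL-4 under both treatments. Thrombospondin 1 was at -1.57, -1.73 and -1.09 in WT and 1.67, 2.10 and 2.22 in KO with vehicle and at -2.49, -2.37 and -1.89 and 0.98, 1.30 and 1.26 with RSG. The differences were 3.46 ± 0.23 and 3.43 ± 0.23 (limma, adjusted p = 6.0e-06 and 1.0e-05). Thy1 was at -0.49, -0.61 and 0.37 in WT and 3.67, 3.92 and 4.25 in KO with vehicle and at -0.36, 0.31 and 0.26 and 3.35, 3.65 and 3.36 with RSG, with differences of 4.19 ± 0.29 and 3.38 ± 0.29 (adjusted p = 7.5e-06 and 3.9e-05). Igfbp4 was at -2.19, -2.49 and -2.84 in WT and -0.54, -0.56 and -0.61 in KO with vehicle and at -2.34, -3.13 and -3.06 and -1.01, -0.95 and -1.05 with RSG, with differences of 1.94 ± 0.22 and 1.84 ± 0.22 (adjusted p = 0.00016 and 0.00030). WT and KO arrays did not overlap for any of these genes, and 6 of 6 probe sets for Igfbp4 were called higher with vehicle and 4 of 6 with RSG.

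Markers of other blood cells moved with these calls. With IL-4 and vehicle, all 6 measured lymphocyte, 9 neutrophil, 7 mast cell and basophil and 5 megakaryocyte markers were called higher in KO, and with RSG 5, 9, 7 and 4 of them were. The lymphocyte mean lay between 2.93 and 3.99 on KO arrays with IL-4 and between -0.28 and 0.54 on WT arrays with IL-4. Its T cell members Cd3d and Cd3e, named here after their values were seen since Thy1 is a T cell antigen, differed by 4.00 ± 0.38 and 1.69 ± 0.42 with vehicle. The neutrophil mean was 3.23 to 3.58 in KO and -4.78 to -3.65 in WT. The mast cell mean was 5.94 to 6.73 in KO and -0.84 to 1.73 in WT, and the megakaryocyte mean 2.39 to 2.90 and -0.74 to 0.13. Of 14 macrophage markers 6 were higher and 2 lower in KO with vehicle. Thrombospondin 1 is also a platelet granule protein. Of 7 measured proliferation markers, 5 were called higher in KO under each treatment, and 1 lower with vehicle. Their mean was 0.74 to 0.98 on KO arrays with IL-4 and -2.03 to -0.75 on WT arrays with IL-4. The part of these cells and of proliferation in the values of Thbs1, Thy1 and Igfbp4 was not tested.

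**Figure D5:**
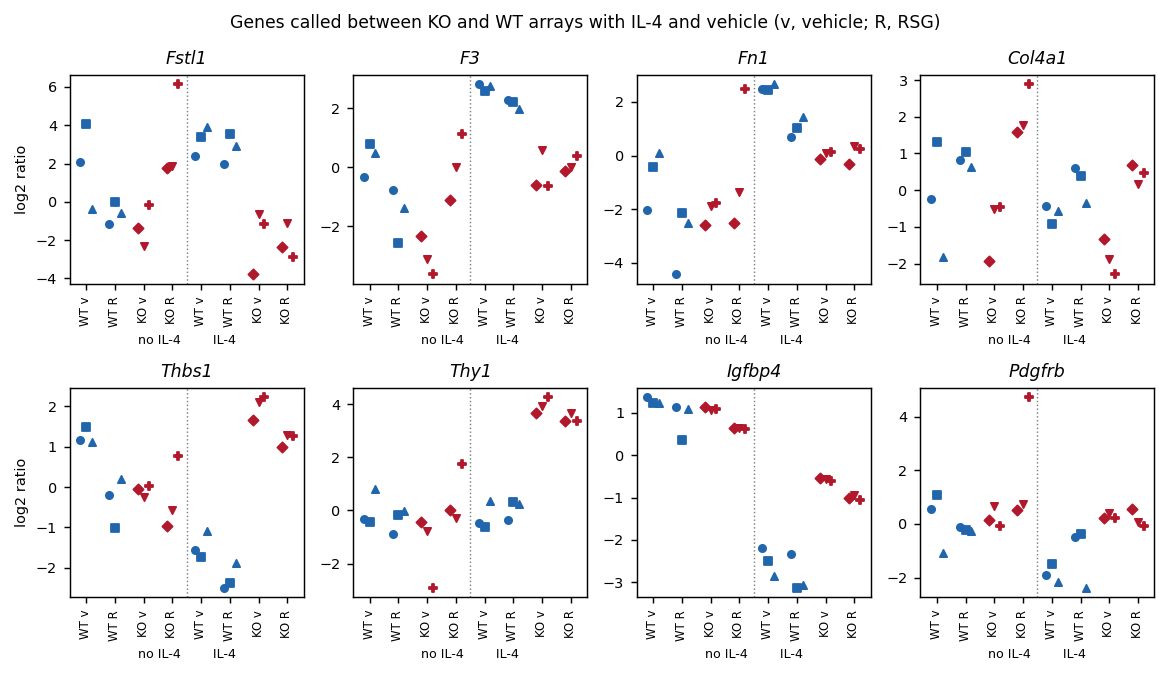
Log2 ratio (vertical axes, each with its own scale) of the 8 members called between KO and WT with IL-4 and vehicle, on each array by group; blue, WT; red, KO; v, vehicle; R, RSG; symbols as for the mice above. Right of the dotted line, with IL-4, WT and KO vehicle arrays do not overlap for any of the 8 genes.

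Col4a1 and Pdgfrb were called with vehicle only. Col4a1 was at -0.44, -0.92 and -0.55 in WT and -1.33, -1.86 and -2.29 in KO, a difference of -1.19 ± 0.31 (limma, adjusted p = 0.015), a call lost when mouse 1, 5 or 6 was left out (adjusted p 0.054, 0.054 and 0.076), with centred arrays (0.056) and on all 24 arrays (0.13). Pdgfrb was at -1.88, -1.49 and -2.16 in WT and 0.23, 0.40 and 0.21 in KO, a difference of 2.13 ± 0.47 (adjusted p = 0.0064). It came from probe set 1436970_a_at (4.15 ± 0.95), while 1417148_at gave 0.10 ± 0.34.

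Called with RSG only were Col5a2 at -2.02 ± 0.53 (limma, adjusted p = 0.018), Postn at -1.75 ± 0.51 (0.029) and Pdgfra at -1.92 ± 0.57 (0.033). Col5a2 was at 0.46, 0.41 and -1.04 in WT and -2.06, -1.87 and -2.30 in KO. Periostin was at 0.12, 0.42 and -0.33 in WT and -1.35, -0.85 and -2.86 in KO, and Pdgfra at 1.41, 1.69 and 1.10 and 0.94, -1.60 and -0.90. The probe sets for Pdgfra disagreed in direction, 1421916_at giving 1.68 ± 1.00 (not called), 1421917_at -4.44 ± 0.89 and 1438946_at -2.20 ± 0.78 (not called), and those for Col5a2 gave -3.25 ± 0.61 and -0.79 ± 0.98 (not called). All 3 genes were lower in every KO culture than in every WT culture. Each of these calls was lost without 3 or more of the 6 mice in turn, at adjusted p values between 0.055 and 0.14. Whether these differences depend on RSG is covered by the interaction of RSG and genotype with IL-4, for which limma called 0 members (0.319% of all genes), against 5 at an unadjusted p under 0.05. With the mouse as a block it called 1, Fn1.

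Among members not called between genotypes with IL-4 and vehicle, differences lay between -2.46 and 1.71. Among those not called with RSG they lay between -1.43 and 1.27, the latter for Pdgfrb. The remaining members showed no call between genotypes with IL-4 under either treatment. Among them were the genes that stood highest without IL-4, such as Bgn, at -1.41, 0.47 and -2.74 in WT and -0.34, -1.12 and -0.30 in KO with vehicle, Sparc, at -2.54, 0.04 and -1.96 and -0.94, -0.50 and -0.26, and Col1a2, at -0.32, -0.01 and -0.89 and -0.20, -0.12 and -1.71. For these 3 genes WT and KO cultures overlapped.

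Between RSG and vehicle with IL-4, few members were called, as were few genes in general. In WT, 1 of 38 was called (2.63%, background 0.83%): Fn1 was at 2.48, 2.46 and 2.67 with vehicle and 0.70, 1.04 and 1.44 with RSG, a difference of -1.48 ± 0.22 (limma, adjusted p = 0.019). Leaving out mouse 1, 2 or 3 took the call away, at an adjusted p of 0.15, 0.15 and 0.064. Of all genes, 0.39% were called higher and 0.44% lower with RSG in WT, and 0.165% and 0.385% in KO. In KO, 1 of 38 was called (2.63%, background 0.55%): Col4a1 was at -1.33, -1.86 and -2.29 with vehicle and 0.68, 0.17 and 0.47 with RSG, a difference of 2.27 ± 0.31 (adjusted p = 0.012), lost without mouse 5 or 6 (adjusted p 0.13 and 0.16). Without IL-4 Col4a1 reached values as low in single vehicle cultures, at -1.92 in KO mouse 4 and -1.81 in WT mouse 3. The median member difference was 0.22 in WT, against -0.03 for all genes, and -0.11 in KO, against 0.03.

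One probe set moved with RSG where its gene's median did not. In WT with IL-4, 1423584_at for Igfbp7 was 2.62 ± 0.21 higher with RSG (limma over 45037 probe sets, adjusted p = 0.0025), while 1423585_at gave 0.21 ± 0.37 and 1437804_at -0.53 ± 0.91. Between genotypes with RSG the same probe set was 2.04 ± 0.21 lower in KO, at 0.25, 0.58 and 0.36 against 2.43, 2.26 and 2.62 in WT, and without IL-4 it followed the other members at a correlation of 0.87. In KO with IL-4 it differed by 0.82 ± 0.21 between RSG and vehicle and was not called (adjusted p 0.26). Over all member probe sets, 18 of 85 were called between genotypes with vehicle and 18 with RSG, against 23.7% and 19.2% of all probe sets.

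Other matrix genes with IL-4 were called in both directions. Of 41 measured matrix assembly genes outside the module, 4 were higher and 7 lower in KO with vehicle. Nid1, a linker of basement membranes, was 4.32 ± 0.61 lower and Pcolce 2.59 ± 0.48 lower (limma, adjusted p = 0.00054 and 0.0026). Tgfbi, a TGF-beta-induced adhesion protein that macrophages make, was 2.58 ± 0.23 higher and Plod2, a collagen hydroxylase, 2.26 ± 0.28 higher (adjusted p = 3.2e-05 and 0.00022). With RSG 4 were higher and 5 lower. Of 14 TGF-beta pathway genes, 2 were higher and 1 lower with vehicle, and 3 and 0 with RSG. Of 12 other contractile genes, 0 were higher and 4 lower with vehicle (Cald1, Tpm2, Actn1 and Flna, by 0.73 to 2.13), and 3 were lower with RSG.

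Set against the cultures without IL-4, each group with IL-4 gave a description of the module, since those cultures chose the members and all comparisons that share a control are not independent. With vehicle, 8 members were called in WT (background 14.6%), 2 higher (background 7.95%) and 6 lower (6.66%) with IL-4. In KO 4 were called (background 13.9%), 3 higher (5.68%) and 1 lower (8.21%). In WT, Ccn2 was 5.60 ± 1.15 lower with IL-4, at -2.09, -0.19 and -4.54 against 3.38, 5.21 and 1.38, and Igfbp4 was 3.79 ± 0.20 lower. Fn1 was 3.32 ± 0.88 higher and F3 2.39 ± 0.52 higher. The call for Fn1 was lost without mouse 1, 2 or 3, and that for Ccn2 on the compared arrays alone. In KO with vehicle, Thy1 was 5.31 ± 0.57 higher with IL-4, F3 2.79 ± 0.52 higher and Thbs1 2.09 ± 0.36 higher, and Igfbp4 was 1.66 ± 0.20 lower. Tissue factor thus stood higher with IL-4 in both genotypes, from a lower value in KO, while Thbs1 fell in WT by 2.73 ± 0.36. The interaction of IL-4 and genotype with vehicle called 4 of 38 members, against 17.6% of all genes.

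With RSG, 7 members were called between IL-4 and no IL-4 in WT (background 14.3%), 5 higher (8.57%) and 2 lower (5.69%). In KO 14 were called (background 8.48%), 2 higher (4.58%) and 12 lower (3.9%). Those lower in KO were Col1a2, Col5a2, Serpinh1, Loxl1, Fstl1, Sparc, Postn, Ccn1, Ccn2, Bgn, Prrx1 and Igfbp4, by 1.64 to 5.85, and the KO RSG cultures without IL-4 against which they were set are those with the high module values. Without mouse 6 the number of calls in KO was 4, and without the 2 highest cultures 12. On the compared arrays alone it was 2, Postn and Igfbp4. In WT with RSG, Fn1 was 4.09 ± 0.88 higher with IL-4 and Fstl1 3.38 ± 1.16 higher, a call that was lost without mouse 1, 2 or 3 and with the highest-mean probe set. Of the 5 genes whose promoters are shown, Fstl1 alone was above 0 in every WT culture with IL-4.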

How the data were processed

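RNA from 24 macrophage cultures was measured on Affymetrix expression arrays covering the mouse genome, each culture on its own array. The authors deposited linear ratios, made per the study's methods with GC-RMA in GeneSpring: every array was scaled to its median signal, and every probe set to its median across cultures. A further division by the vehicle control, named in the methods, is not in the values. The submitters' processing notes also name GCOS without a version. Such scaling removes the absolute level, and a member's value depends on all cultures.

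The table held 45101 probe sets, and the 64 that are Affymetrix controls were dropped. Platform annotation gave 34945 probe sets 1 symbol, 932 several and 9160 none. Ratios were taken to log2 with no further scaling, and a gene's value was the median over its single-symbol probe sets. Member ratios ran from 0.0284 to 537, none at the table's lowest ratio of 0.01. Among 85 member probe sets, 75 had a median ratio within 0.001 of 1. No arrays were identical, and 0 columns of samples were unused.

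Groups came from the labels. Tests were two-sided, with limma 3.58.1 in R 4.3.3 (lmFit and eBayes without a variance trend, since a mean ratio is not a level), on the 12 IL-4 arrays with 8 residual degrees of freedom, or on all 24 with 16 for comparisons with cultures lacking IL-4. Benjamini-Hochberg adjustment ran over 18193 genes. The study's own test, an equal-variance t-test, was an alternative, as were a mouse block, quantile normalization, centred arrays, other probe set choices, other sets of arrays and leaving out each mouse. The fit was tested on simulated data. The same mouse gave 4 cultures, which pairs the arrays. Over all 24 arrays, deviations of same-mouse arrays hardly correlated (mean 0.012, 0 of 36 pairs above 0.1). The consensus correlation within a mouse was 0.009 on all arrays and 0.17 on the arrays with IL-4.

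The members, gene lists and naming rule were chosen with earlier results of these data known. Values on every array were given for up to 3 members of each role with the widest range without IL-4 and for every member called among IL-4 arrays; other lists were counted whole. Fitting probe sets singly and leaving out the 2 highest cultures, also in the descriptions, were added after seeing the data. Promoter windows came from RefSeq and were listed for 27 of the 40 genes.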

Additional observations from a re-analysis of the deposited data

Results flagged for a closer look

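For 4 members the change with IL-4 in vehicle cultures differed between WT and KO by the interaction term of limma on all 24 arrays. These were 4 of 38, against 17.6% of all genes. The arrays without IL-4, on which the members were chosen, enter the term, so the values are a description and no p is given. The WT change minus the KO change was -5.569 ± 0.81 (SE) for Thy1, from 5.31 in KO and -0.26 in WT, and -4.814 ± 0.50 for Thbs1, from 2.09 in KO and -2.73 in WT. It was -2.124 ± 0.29 for Igfbp4, which was lower with IL-4 in both genotypes, and -2.509 ± 0.79 for Ptx3, for which neither genotype's own change was called. Ptx3 was no longer among these genes without the 2 highest cultures or without mouse 1, 2, 3, 4 or 5. Markers of lymphocytes, neutrophils, mast cells and megakaryocytes were also called higher in KO with IL-4 and vehicle, in all of 6, 9, 7 and 5 measured genes, and their part in the values of Thy1 and Thbs1 was not tested.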

How the results depend on the processing

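Between genotypes with IL-4, the calls of Fstl1, F3, Thbs1, Thy1 and Igfbp4 under both treatments, and of Fn1 with vehicle, held under every alternative run on gene values, and no called member turned direction under them. Leaving out each mouse gave 7 to 10 member calls with vehicle and 6 to 8 with RSG. The call for Pdgfrb with vehicle was lost with the probe set of the highest mean (0.10, adjusted p 0.86) and on all 24 arrays (adjusted p 0.051), and that for Pdgfra with RSG fell to -0.26 with probe sets of median 1 only. The call for Fn1 with RSG was lost on all 24 arrays (adjusted p 0.48), as was that for Col5a2 with RSG (0.24). The methods' t-test did not call Col4a1 with vehicle, nor Col5a2, Fn1, Postn or Pdgfra with RSG (adjusted p 0.064 to 0.18). The causes were not tested.

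For RSG with IL-4, WT gave 2 calls with the highest-mean probe set and with probe sets fitted singly, 0 on all 24 arrays and with the methods' t-test (3 before adjustment), and 0 without any 1 mouse. KO gave 0 on all 24 arrays and with the t-test (4 before adjustment), and 0 to 1 without a mouse. Against cultures without IL-4, the calls in WT vehicle numbered 5 on the compared arrays alone, 4 by t-test, with Fn1 and Ccn2 not among them, and 4 to 9 without a mouse. KO vehicle gave 7 on the compared arrays alone, with the highest-mean probe set and with single probe sets, and 4 to 5 without a mouse. WT RSG gave 4 to 5 without a mouse. KO RSG gave 2 on the compared arrays alone, 1 (Igfbp4) by t-test and 4 to 13 without a mouse. With the mouse as a replicate block, the interaction of RSG and genotype with IL-4 called 1 member, Fn1, and no call of a named gene was lost; the consensus correlation was 0.17. The interaction of IL-4 and genotype gave 3 to 4 calls without a mouse. The mean over members moved to -0.29 in WT with IL-4 and vehicle with the highest-mean probe set, and to -0.36 and -0.41 in KO with centred arrays and with probe sets of median 1. Signal over background is unknown, so a member near background cannot be told from one that did not change.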
